A study of Mus musculus with 6 samples.

Results

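The Serpina1 and Serpina3 genes encode secreted protease inhibitors that the liver makes in large amounts. The 10 genes examined here were the rows of the count table named Serpina1a, Serpina1b, Serpina1c, Serpina1d, Serpina1e, Serpina3c, Serpina3k, Serpina3m, Serpina3n and Serpina6, out of 54532 genes listed. They were read in the livers of 6 male C57BL/6J mice that had eaten a high-fat diet for 6 weeks, starting when they were 8 weeks old, as a model of insulin resistance (IR). The fasted mice (16 h) were injected intraperitoneally with insulin, 0.75 units/kg (IR insulin, n = 3), or with bovine serum albumin, BSA (IR vehicle, n = 3), and were studied 6 h later. The mice of a group were independent animals, and both groups carried the same diet and fast, so no lean or unfasted animal enters any value below. All 10 genes were found once each, and all 10 passed the filter on low counts.

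Serpins trap a protease with an exposed loop, the reactive centre loop. The protease cuts the loop and is then dragged across the inhibitor and held there. The sequence of the loop sets which protease is caught. In humans SERPINA1 encodes α1-antitrypsin, which protects the lung from neutrophil elastase, and SERPINA3 encodes α1-antichymotrypsin, an acute phase protein. Mice carry several copies of each. Serpina6 encodes corticosteroid-binding globulin, a serpin of the same family that carries glucocorticoids in blood in place of inhibiting a protease.

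The 10 genes lay within 767.7 kb of chromosome 12 (103646630 to 104414329, mouse build 38), a stretch whose 22 annotated protein-coding genes are all Serpina genes. The 5 Serpina1 genes were 96.3 to 98.5% identical in their coding sequences (1239 bases without the stop codon), and the 4 Serpina3 genes were 83.8 to 92.0% identical to each other. Between the families identity was 62.8 to 64.8%. Differences were denser in the reactive loop: over its 66 bases the Serpina1 pairs were 84.8 to 93.9% identical, against 96.8 to 99.1% in the rest of the coding sequence. The loop stretches below were read from the GENCODE transcripts, 5′ to 3′, from the conserved hinge to the codon before the next conserved block. They are shown because differences between the copies are dense there. Capitals mark the 15 positions that are not the same in all 5 Serpina1 genes.
Serpina1a (chr12:103853765-103853830, minus strand): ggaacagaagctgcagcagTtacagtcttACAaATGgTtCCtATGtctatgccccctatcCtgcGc
Serpina1b (chr12:103728332-103728397, minus strand): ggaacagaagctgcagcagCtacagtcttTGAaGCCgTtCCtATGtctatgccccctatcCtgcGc
Serpina1c (chr12:103895102-103895167, minus strand): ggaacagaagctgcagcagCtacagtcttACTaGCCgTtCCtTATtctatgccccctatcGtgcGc
Serpina1d (chr12:103763770-103763835, minus strand): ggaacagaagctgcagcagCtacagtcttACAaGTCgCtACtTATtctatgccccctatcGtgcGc
Serpina1e (chr12:103947108-103947173, minus strand): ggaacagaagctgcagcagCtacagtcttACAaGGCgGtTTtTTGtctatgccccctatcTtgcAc

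In the Serpina3 genes the loops differed in length as well, at 66 bases in Serpina3c, 69 in Serpina3k and 75 in Serpina3m and Serpina3n. Capitals mark everything after the 10 leading bases that the 4 genes share. The hinge codons used for the search were not found in Serpina6, which is not shown.
Serpina3c (chr12:104147322-104147387, minus strand): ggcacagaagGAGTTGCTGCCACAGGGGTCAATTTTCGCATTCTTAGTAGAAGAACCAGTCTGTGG
Serpina3k (chr12:104345269-104345337, plus strand): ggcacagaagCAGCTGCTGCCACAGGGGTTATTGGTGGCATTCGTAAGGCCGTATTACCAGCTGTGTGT
Serpina3m (chr12:104393769-104393843, plus strand): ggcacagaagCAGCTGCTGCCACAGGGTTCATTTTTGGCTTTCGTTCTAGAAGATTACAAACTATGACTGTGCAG
Serpina3n (chr12:104413448-104413522, plus strand): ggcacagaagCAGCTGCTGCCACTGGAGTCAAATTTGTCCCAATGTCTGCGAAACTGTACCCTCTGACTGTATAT

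Such likeness bears on how far counts can be assigned to a copy. Of all 50-base windows in its annotated transcripts, Serpina1c had 20.7% that no other gene's transcripts hold, Serpina1a 42.4%, Serpina1d 49.1%, Serpina1e 65.4% and Serpina1b 70.5%. The share was 80.9% for Serpina3m, 86.0% for Serpina3k, 93.1% for Serpina3n, 95.7% for Serpina3c and for Serpina6 all windows were its own. Serpina1a and Serpina1c shared the most windows, 910. Counts of single Serpina1 copies are therefore uncertain, and sums over the copies, which depend less on how reads were split among them, were tested beside them. The annotation also places Serpina1d within the span of Serpina1b and Serpina3k within that of Serpina3m, on the same strand in both cases, and has Serpina1c overlap B430119L08Rik on the other strand, so reads of these pairs may be shared.

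The libraries held 18449986 to 21827619 counts, and 13377 genes were tested. Vehicle replicate 2 stood apart: per 10 percentage points of GC content, the log2 difference of a gene from the other libraries dropped by 1.13, where the slope was −0.064 to 0.19 in the other 5. The GC content of the 10 Serpina transcripts ran from 48.5 to 52.3%. Vehicle replicates 2 and 3 were the pair of libraries least alike in their counts over genes (chi-square per degree of freedom 528). Vehicle replicate 1 and insulin replicate 2 were the pair most alike (27.1). Against insulin replicates 1 and 3, vehicle replicate 1 was at 40.8 and 50.2. Against vehicle replicates 2 and 3, it was at 369 and 271. Vehicle replicates 2 and 3 were each at 239 or more against every other library. Over the genes compared, vehicle replicate 1 thus lay nearer the insulin livers than the other vehicle livers. Of 6 hepatocyte markers listed, the 5 found in the table were abundant in every library, with a summed level of 56479 to 166090 CPM. CPM are counts per 1000000 counts of a library, adjusted for library composition by TMM.

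Together the 10 genes took 3.25% (95% exact binomial interval 3.25 to 3.26%, counting error only) of all counts in insulin replicate 2 and 4.13% (4.13 to 4.14%) in vehicle replicate 3, the lowest and highest of the 6 libraries. On a scale that also divides by the length of the longest transcript (RPKM), Serpina3k was first, at a mean of 8264 RPKM over the 6 libraries (6164 to 10315), and ranked 7 of 13367 genes. Serpina1b followed at 3437 (2670 to 4662), below Serpina3k in 6 of 6 libraries. The next places were held by Serpina1e at 2635, Serpina1d at 1856, Serpina1a at 1674, Serpina3n at 1466 and Serpina1c at 932 RPKM. Among the Serpina1 copies this order was also that of their shares of own 50-base windows. Those shares were 70.5% (Serpina1b), 65.4% (Serpina1e), 49.1% (Serpina1d), 42.4% (Serpina1a) and 20.7% (Serpina1c). How reads were assigned to copies is unknown, and its part in the order was not tested. From Serpina1b down to Serpina1c the range of each gene overlapped that of its neighbour in the order. Within libraries, Serpina1d was above Serpina1a in 6 of 6 (their CPM were nearly equal, and the transcript of Serpina1d is the shorter), while the other neighbours in this stretch changed places in at least 1 library. Serpina3m (631), Serpina6 (82.0) and Serpina3c (2.04) came last, each below the range of the gene before it.

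**Figure D1:**
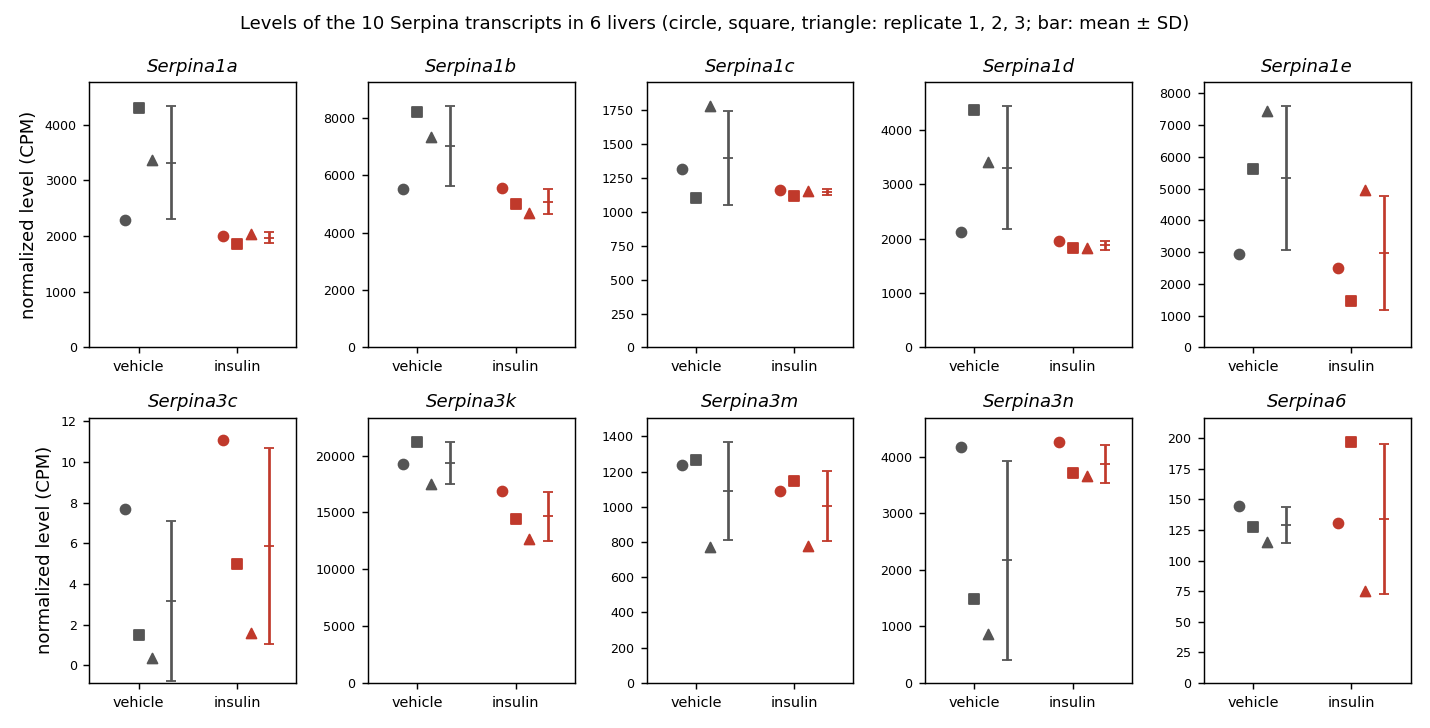
Normalized levels (CPM, linear axes that differ between genes) of the 10 Serpina transcripts in the 3 IR vehicle (grey) and 3 IR insulin (red) livers, with the mean and SD of each group. Serpina1a and Serpina1d were lower in all 3 insulin livers than in any vehicle liver, and Serpina3n was low in vehicle replicates 2 and 3 only.

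The comparison of IR insulin with IR vehicle asks which of these transcripts respond to insulin in insulin-resistant liver. All 5 Serpina1 transcripts had lower mean levels with insulin, Serpina3k and Serpina3m were lower as well, and Serpina3n, Serpina3c and Serpina6 had higher means. None passed an adjusted p of 0.05 (edgeR quasi-likelihood test, Benjamini-Hochberg over 13377 genes), for which the background was 0% of genes tested; the smallest adjusted p among the 10 was 0.852, the same as over all genes. Serpina1a and Serpina1d met the criteria of the study (log2 fold change of 0.35 or more in either direction, unadjusted p under 0.05). The study applied these criteria to DESeq2 results, whereas here they were applied to those of edgeR. So 2 of 10 met them, both lower, where 2.86% of all genes tested did in either direction and 1.86% did as lower. With DESeq2 the same 2 genes met them, beside 3.79% of all genes tested. The 2 groups did not overlap for 3 of the 10, Serpina1a, Serpina1d and Serpina3k, all lower with insulin, beside 12.3% of all genes in either direction, 6.04% as lower and 6.25% as higher. These 3 genes share a cluster, and Serpina1a and Serpina1d also share sequence, so they are not independent of each other. The median log2 fold change was −0.34 over the 10 genes and −0.017 over all genes tested.

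Leaving out 1 library decided which members met the study's criteria. Without vehicle replicate 1 there were 4, Serpina1a, Serpina1d, Serpina3c and Serpina3n, in a fit where 9.81% of all genes tested met them. Without insulin replicate 3 there was 1, Serpina1e, beside 0.875% of all genes. There were 0 without vehicle replicate 2, vehicle replicate 3, insulin replicate 1 or insulin replicate 2, where 3.69, 6.51, 0.727 and 1.05% of all genes met them. No adjusted p under 0.05 was reached by any member in these 6 fits. Vehicle replicate 1 lay within the insulin range for Serpina1b, Serpina1e, Serpina3c, Serpina3n and Serpina6.

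**Figure D2:**
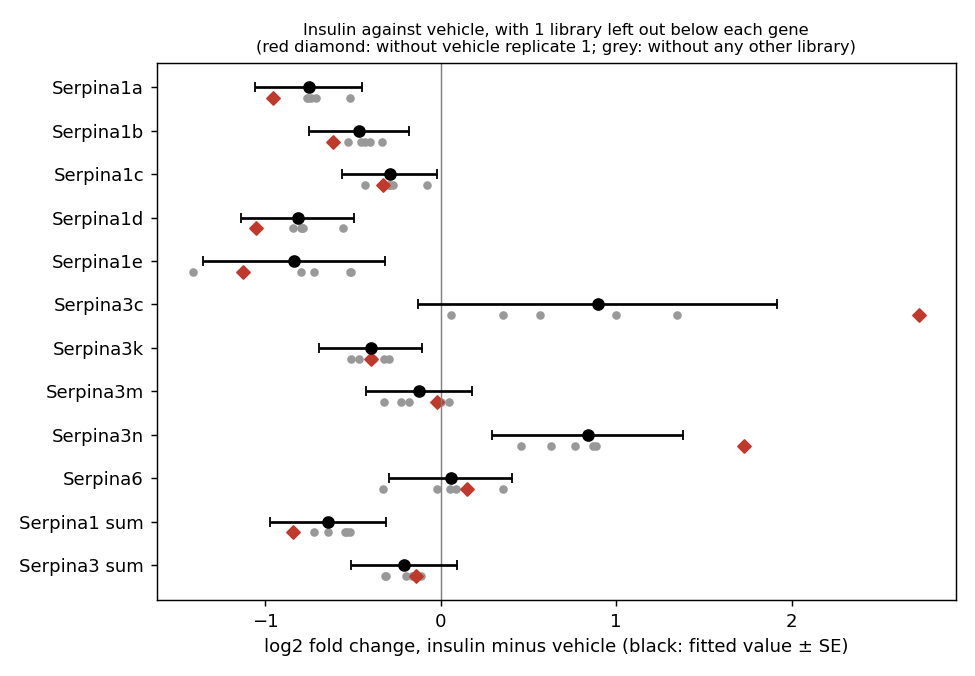
Log2 fold change of IR insulin against IR vehicle for each of the 10 transcripts and for the Serpina1 and Serpina3 sums (black points, bars are ± SE), with the value after 1 library is left out below each (grey points, red diamond without vehicle replicate 1). The 5 Serpina1 transcripts lie below 0 in every fit, and the value of Serpina3n moves from 0.84 to 1.73 without vehicle replicate 1.

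Serpina1a (ENSMUSG00000066366, chromosome 12, 103853589 to 103863562, minus strand) encodes an α1-antitrypsin copy. The 3 vehicle livers gave 2287, 4302 and 3373 CPM (replicates 1, 2 and 3, the order kept below) and the 3 insulin livers 2005, 1867 and 2046 CPM. The insulin livers lay within a narrow band and the vehicle livers spread upward from it. Group means were 3320 ± 1009 CPM for vehicle and 1972 ± 93.4 CPM for insulin (SD, n = 3). The fitted log2 fold change was −0.75 ± 0.31 (SE; unadjusted p 0.0397, adjusted p 0.852, edgeR).

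Serpina1d (ENSMUSG00000071177, chromosome 12, 103763594 to 103773592, minus strand) followed Serpina1a almost exactly. Its levels were 2120, 4369 and 3410 CPM in vehicle livers against 1964, 1833 and 1830 CPM in insulin livers, so the vehicle mean was 1.76 times the insulin mean. The log2 fold change was −0.82 ± 0.32 (SE; unadjusted p 0.0357, adjusted p 0.852, edgeR). The ratio of Serpina1a to Serpina1d in CPM stayed between 0.985 and 1.12 in the 6 libraries. Their root mean square difference after centring, 0.066 on the log2 scale, was the smallest of the 10 Serpina1 pairs. Serpina1a and Serpina1d shared 478 windows. Serpina1a and Serpina1c shared 910 windows, and their difference was 0.43. The part of shared reads in these differences was not tested. Without vehicle replicate 2 the log2 fold changes of Serpina1a and Serpina1d were −0.52 and −0.55 (unadjusted p 0.0756 and 0.0733), and with an offset for GC content they were −0.87 and −0.99 (0.0245 and 0.0221).

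Serpina1b (ENSMUSG00000071178, chromosome 12, 103728156 to 103830373, minus strand) had the highest mean level of the Serpina1 copies as counted. The vehicle levels were 5513, 8214 and 7355 CPM and the insulin levels 5552, 4996 and 4704 CPM, and the groups overlapped because vehicle replicate 1 lay just below insulin replicate 1. Its log2 fold change was −0.47 ± 0.29 (SE; unadjusted p 0.141). Serpina1c (ENSMUSG00000079015, chromosome 12, 103894926 to 103904887, minus strand) had the lowest mean level of the 5 as counted. It was at 1315, 1099 and 1776 CPM (vehicle) against 1157, 1116 and 1152 CPM (insulin). In contrast to Serpina1a, its level in vehicle replicate 2 was the lowest of the 6. Its log2 fold change was −0.29 ± 0.27 (unadjusted p 0.313), and −0.080 without vehicle replicate 3.

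Serpina1e (ENSMUSG00000072849, chromosome 12, 103946931 to 103958975, minus strand) varied most among the Serpina1 copies, and it did so in both groups. It was at 2928, 5606 and 7432 CPM in the vehicle livers and at 2493, 1476 and 4967 CPM in the insulin livers, a 5.04-fold range over all 6. Insulin replicate 3, which was like the other insulin livers for Serpina1a, Serpina1c and Serpina1d, was high here. The log2 fold change was −0.84 ± 0.52 (SE; unadjusted p 0.145). Without insulin replicate 3 it was −1.41 (unadjusted p 0.0294), and without insulin replicate 2 or vehicle replicate 3 it was −0.51 and −0.52.

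The make-up of the Serpina1 counts differed between libraries, most of all in the share of Serpina1e. Serpina1e supplied 13.1% (95% exact binomial interval 12.9 to 13.2%) of Serpina1 counts in insulin replicate 2 and 33.8% (33.6 to 34.0%) in insulin replicate 3. These intervals cover counting error only, not how reads were assigned to copies. In the vehicle livers the share was 20.7, 23.8 and 31.8%. Serpina1b supplied 31.5 to 44.3%, Serpina1a 13.9 to 18.2%, Serpina1d 12.5 to 18.5% and Serpina1c 4.66 to 9.89%. The lowest Serpina1c share was in vehicle replicate 2 and the others lay at 7.61% or above.

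The sum of the 5 Serpina1 genes was 14161, 23597 and 23345 CPM for vehicle against 13171, 11287 and 14697 CPM for insulin. Vehicle replicates 2 and 3 stood well above the other 4 livers, and vehicle replicate 1 lay among the insulin livers. The log2 fold change of the sum was −0.64 ± 0.33 (SE; unadjusted p 0.0890, adjusted p 0.852, edgeR with the sum in place of the 5 rows). It was −0.84 (unadjusted p 0.0213, edgeR) without vehicle replicate 1, the fit with the largest change. With any other library left out it was −0.72 to −0.52 (unadjusted p 0.119 to 0.251). Without vehicle replicate 2 it was −0.52 (unadjusted p 0.165). The summed level of the 5 hepatocyte markers was also highest in vehicle replicates 2 and 3, at 67635, 166090 and 100730 CPM (vehicle) against 69927, 71574 and 56479 CPM (insulin). Most of that sum was Alb, which encodes albumin, and the single markers did not share 1 pattern. Alb, Ttr and Cps1 were highest in those 2 libraries, whereas Apoa1 was lowest in vehicle replicate 2 (3901 CPM) and Apob was lowest in vehicle replicate 3 (4380 CPM). Their part in the result was not tested. In whole liver, fewer cells of a type and less RNA per cell cannot be told apart.

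**Figure D3:**
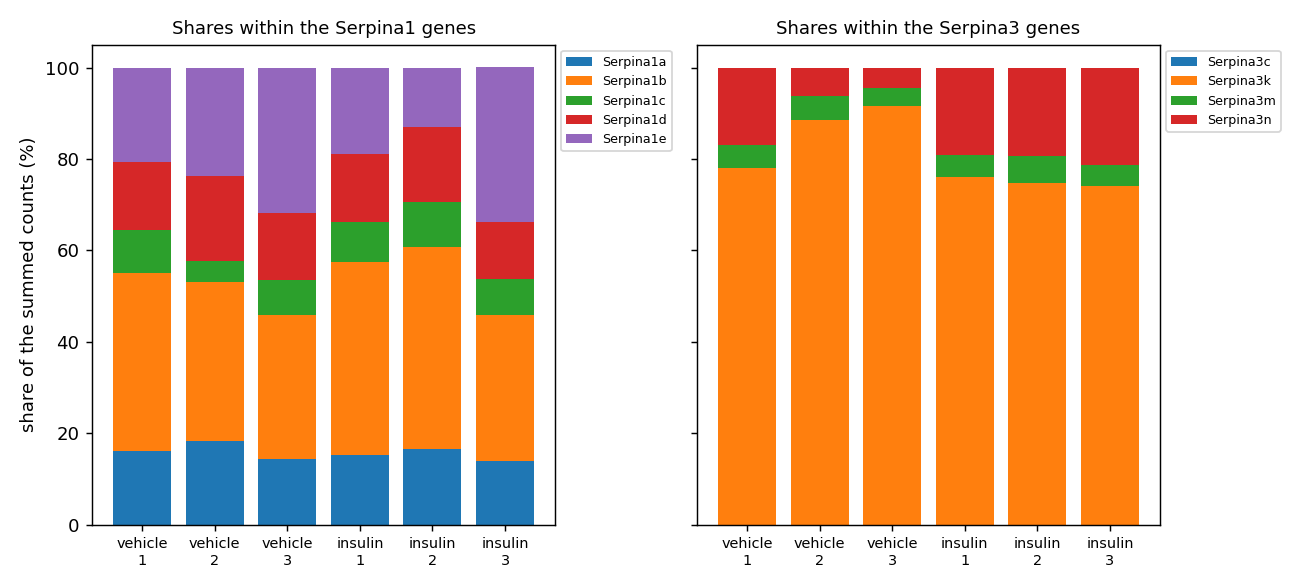
Share of each gene in the summed counts of the 5 Serpina1 genes (left) and the 4 Serpina3 genes (right), one bar per library, each adding to 100%. Serpina1e takes from 13.1 to 33.8% of the Serpina1 counts, and Serpina3n takes 4.47 and 6.20% of the Serpina3 counts in vehicle replicates 3 and 2 against 16.9 to 21.4% in the other 4 libraries.

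The promoters of the Serpina1 copies were closely alike too. RefSeq windows from 250 bases before to 50 bases after the annotated start (build GRCm38.p6) were at hand for 7 of the 10 genes, namely the 5 Serpina1 genes, Serpina3c and Serpina3n. Serpina1 pairs were 91.7 to 98.4% identical over 238 to 298 aligned bases. All 5 held the letters GTTAAT once on either strand, part of the binding site of the hepatocyte factor HNF1, which 7.1% of 32851 promoters of this length hold. The window of Serpina3c held it once as well and that of Serpina3n did not. All 5 also held CCAAT, as do 37.4% of promoters, and none of the 7 held TTCNNNGAA, the STAT site, present in 8.3%. These are matches of letters within this window only. The windows of Serpina1a, whose levels barely differed among insulin livers, and Serpina1e, whose levels ranged widely, are shown with the GTTAAT match in capitals.
Serpina1a (chr12:103863570-103863869, minus strand): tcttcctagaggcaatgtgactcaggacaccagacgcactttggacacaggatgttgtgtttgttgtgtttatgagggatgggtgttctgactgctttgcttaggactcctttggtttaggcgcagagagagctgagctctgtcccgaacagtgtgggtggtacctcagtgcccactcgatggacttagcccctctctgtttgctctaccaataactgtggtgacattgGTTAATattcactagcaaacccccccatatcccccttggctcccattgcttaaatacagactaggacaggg
Serpina1e (chr12:103956848-103957147, minus strand): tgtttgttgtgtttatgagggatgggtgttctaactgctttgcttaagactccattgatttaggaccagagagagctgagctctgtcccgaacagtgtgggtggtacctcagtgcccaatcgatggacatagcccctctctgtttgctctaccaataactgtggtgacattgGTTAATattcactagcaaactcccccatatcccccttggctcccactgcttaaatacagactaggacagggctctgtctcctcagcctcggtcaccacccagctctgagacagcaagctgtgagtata

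Among the Serpina3 genes, Serpina3k (ENSMUSG00000058207, chromosome 12, 104338486 to 104346144, plus strand), known as contrapsin for its action on trypsin, supplied most of the counts. Its levels were 19257, 21218 and 17534 CPM for vehicle against 16924, 14387 and 12679 CPM for insulin. The groups did not overlap, but the lowest vehicle and the highest insulin liver were close to each other. The log2 fold change was −0.40 ± 0.29 (SE; unadjusted p 0.212, adjusted p 0.852, edgeR). Serpina3m (ENSMUSG00000079012, chromosome 12, 104338486 to 104394257, plus strand) is the copy most like it, at 92.0% identity and 257 shared windows. It was at 1238, 1266 and 771 CPM (vehicle) against 1089, 1146 and 775 CPM (insulin), low in replicate 3 of each group. Its log2 fold change of −0.12 ± 0.30 (unadjusted p 0.696) was smaller than its SE and changed sign without vehicle replicate 2 (0.0015) or insulin replicate 3 (0.045).

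Serpina3n (ENSMUSG00000021091, chromosome 12, 104406729 to 104414329, plus strand) is the copy best known as inducible, by cytokines and glucocorticoids. Vehicle livers gave 4170, 1486 and 856 CPM and insulin livers 4265, 3714 and 3658 CPM. The insulin livers and vehicle replicate 1 lay together, with vehicle replicates 2 and 3 far below, so the vehicle livers spread 4.87-fold and the insulin livers 1.17-fold. Group means were 2171 ± 1760 CPM for vehicle and 3879 ± 336 CPM for insulin (SD, n = 3). The log2 fold change was 0.84 ± 0.54 (SE; unadjusted p 0.162, adjusted p 0.852, edgeR). Without vehicle replicate 1 it was 1.73 (unadjusted p 0.00195, adjusted p 0.473), and without vehicle replicate 3 it was 0.46 (unadjusted p 0.329). Serpina3n was thus lowest in the 2 vehicle livers in which the Serpina1 sum was highest.

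Within the Serpina3 pool, Serpina3n supplied 4.47% (95% exact binomial interval 4.40 to 4.53%, counting error only) of counts in vehicle replicate 3. The share was 6.20% (6.12 to 6.28%) in vehicle replicate 2, against 16.9% in vehicle replicate 1 and 19.1 to 21.4% with insulin. Serpina3k supplied 74.1 to 91.5%. The Serpina3 sum was 24672, 23978 and 19162 CPM (vehicle) against 22290, 19248 and 17111 CPM (insulin), with overlapping groups. Its log2 fold change was −0.21 ± 0.30 (SE; unadjusted p 0.506).

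Serpina3c (ENSMUSG00000066361, chromosome 12, 104146382 to 104153870, minus strand), whose product was described as a kallikrein-binding protein, was barely present. Its counts were 145, 24 and 7 in the vehicle libraries and 246, 115 and 34 in the insulin libraries. The count of 7 in vehicle replicate 3 has a 95% exact Poisson interval of 2.81 to 14.4, which covers counting error only. In CPM these were 7.67, 1.47 and 0.334 against 11.1, 4.98 and 1.57. The liver with the highest level in each group was replicate 1, and the 33.2-fold range over all libraries was the widest of the 10 genes. The log2 fold change was 0.89 ± 1.02 (SE; unadjusted p 0.407). It was 2.73 (unadjusted p 0.0334) without vehicle replicate 1 and 0.059 without insulin replicate 1.

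Serpina3c and Serpina3n differed widely in level and had closely similar promoters. Per length, Serpina3n exceeded Serpina3c by 718 times in the mean over the 6 libraries, and by 413 to 2749 times in single libraries. Their windows around the start were 93.5% identical over 294 aligned bases. They are shown with capitals on the bases that differ from, or have no partner in, the other gene.
Serpina3c (chr12:104153823-104154122, minus strand): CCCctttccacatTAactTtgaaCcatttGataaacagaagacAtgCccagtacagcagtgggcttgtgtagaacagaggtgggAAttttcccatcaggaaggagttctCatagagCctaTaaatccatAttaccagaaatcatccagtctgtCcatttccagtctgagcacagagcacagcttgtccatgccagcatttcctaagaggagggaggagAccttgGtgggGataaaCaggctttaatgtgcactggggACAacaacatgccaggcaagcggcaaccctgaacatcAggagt
Serpina3n (chr12:104406458-104406757, plus strand): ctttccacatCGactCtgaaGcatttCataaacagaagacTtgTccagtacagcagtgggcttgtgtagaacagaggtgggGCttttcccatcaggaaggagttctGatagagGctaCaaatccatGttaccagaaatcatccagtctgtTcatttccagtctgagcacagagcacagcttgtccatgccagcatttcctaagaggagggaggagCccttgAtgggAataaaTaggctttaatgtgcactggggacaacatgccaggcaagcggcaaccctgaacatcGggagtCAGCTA

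**Figure D4:**
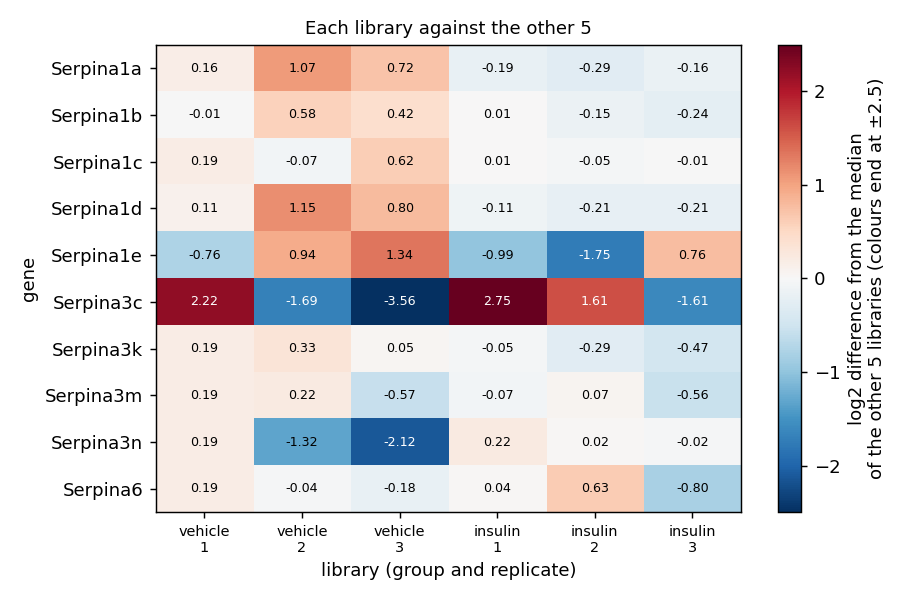
Log2 difference of each library from the median of the other 5, for the 10 transcripts (rows) in the 6 libraries (columns); red is higher and blue lower. Vehicle replicates 2 and 3 are high for Serpina1a, Serpina1b, Serpina1d and Serpina1e and low for Serpina3c and Serpina3n.

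In absolute size, the deviations of the 10 genes from the other libraries had a median of 0.76 in vehicle replicate 2 and 0.67 in vehicle replicate 3, beside 0.69 and 0.35 over all genes tested. In the other 4 libraries the median was 0.092 to 0.35 for the 10 genes and 0.15 to 0.22 over all genes. The coefficient of variation was wider in the vehicle group for 7 of the 10 genes. The exceptions were Serpina1e, Serpina3k and Serpina6.

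Serpina6 (ENSMUSG00000060807, chromosome 12, 103646630 to 103657212, minus strand) is the carrier of corticosterone in mouse plasma. It was at 145, 127 and 115 CPM in the vehicle livers and at 131, 197 and 74.9 CPM in the insulin livers, where both the highest and the lowest value lay. The means were 129 ± 15 and 134 ± 61.2 CPM (SD, n = 3) and the log2 fold change was 0.057 ± 0.35 (SE; unadjusted p 0.874). It was −0.33 without insulin replicate 2 and 0.36 without insulin replicate 3.

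Of 8 genes of corticosteroid handling and response, 1 had a higher and 7 a lower fitted value with insulin, with a median log2 fold change of −0.64. The list held Hsd11b1, Nr3c1, Nr3c2, Fkbp5, Tsc22d3, Per1, Akr1d1 and Srd5a1, of which Nr3c1 is also among the regulators below. None passed an adjusted p of 0.05. Beside 1.86% of all genes tested that met the study's criteria as lower, 2 of the 8 met them, both lower. These were Srd5a1 and Akr1d1, which encode steroid reductases. Srd5a1 was at 24.5, 56.0 and 48.3 CPM (vehicle) against 20.1, 23.0 and 24.9 CPM (insulin) (log2 fold change −0.92 ± 0.32 (SE), unadjusted p 0.0213). Akr1d1 was at 107, 130 and 191 CPM against 72.6, 114 and 70.7 CPM (−0.73 ± 0.31, unadjusted p 0.0459). For both genes vehicle replicate 1 lay within the insulin range.

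The remaining serpins of the same family in the list gave no gene past the study's criteria. Of 15 such genes, 8 were tested, 6 with higher and 2 with lower fitted values, and their median log2 fold change was 0.24. Serpina10, which encodes an inhibitor of activated coagulation factor X, was at 706, 1076 and 206 CPM (vehicle) against 651, 652 and 699 CPM (insulin) (0.010 ± 0.51). Serpina7, which encodes thyroxine-binding globulin, spread more widely still, from 16.7 CPM in vehicle replicate 3 to 530 CPM in vehicle replicate 2, with 220 to 488 CPM in the insulin livers. Vehicle replicate 3 was the lowest library for Serpina7, Serpina10, Serpina12, Serpina3f, Serpina3g and Serpina3i, and the highest for Serpina11. Serpina12, which encodes the adipokine vaspin, had a log2 fold change of −0.47 ± 0.45, Serpina11 −0.26 ± 0.24, Serpina3f 0.32 ± 0.70, Serpina3g 0.23 ± 0.56 and Serpina3i 0.25 ± 0.72.

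Among 13 tested serpins of other families, 4 were higher and 9 lower, and 1 met the study's criteria, beside 2.86% of all genes tested. This was Serpind1, which encodes heparin cofactor II, an inhibitor of thrombin. It was at 228, 622 and 422 CPM (vehicle) against 199, 226 and 204 CPM (insulin), without overlap (log2 fold change −1.02 ± 0.36 (SE), unadjusted p 0.0229). As for the Serpina1 sum, vehicle replicates 2 and 3 were its highest libraries.

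Of 10 listed proteases that such inhibitors meet, 4 had enough counts to be tested, 2 with higher and 2 with lower fitted values. Elane, which encodes the neutrophil elastase caught by α1-antitrypsin, was at 0 to 0.476 CPM and was not tested, nor was Ctsg (0 to 0.0529 CPM), which encodes cathepsin G. Klkb1, which encodes plasma prekallikrein and is made by hepatocytes, was the 1 of the 4 that met the study's criteria, beside 2.86% of all genes tested. It was at 78.4, 358 and 165 CPM (vehicle) against 78.8, 84.6 and 47.8 CPM (insulin) (log2 fold change −1.51 ± 0.52 (SE), unadjusted p 0.0207). Prtn3, which encodes proteinase 3, lay between 0.0614 and 2.07 CPM (1.41 ± 0.76).

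All 16 listed regulators of serpin transcription were tested, 10 with higher and 6 with lower fitted values. Of these, 1 met the study's criteria, beside 2.86% of all genes tested. Osmr, which encodes the oncostatin M receptor, met the study's criteria and had no overlap, at 5.82, 14.4 and 6.68 CPM (vehicle) against 5.40, 4.29 and 4.66 CPM (insulin) (log2 fold change −0.90 ± 0.39, unadjusted p 0.0485). Ghr, which encodes the growth hormone receptor, was at 343, 778 and 315 CPM against 280, 297 and 238 CPM (−0.82 ± 0.38, unadjusted p 0.0620). Of 11 genes of serpin folding, secretion and uptake, 4 were higher and 7 lower and none met the criteria. Lrp1, which encodes the hepatic receptor that takes up serpin and protease complexes, was at 293, 263 and 315 CPM (vehicle) against 387, 325 and 436 CPM (insulin), without overlap (0.40 ± 0.23, unadjusted p 0.120). Canx, which encodes the chaperone calnexin, had a log2 fold change of −0.33 ± 0.30.

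Markers of other cells were low beside those of hepatocytes. Of 7 neutrophil markers 2 reached a mean of 1 CPM, and their summed level ran from 3.67 CPM in vehicle replicate 3 to 70.8 CPM in vehicle replicate 2. The 5 erythroid markers summed to 626, 1587 and 413 CPM with vehicle and to 312 to 478 CPM with insulin. Of these, 4 met the study's criteria as lower, all globin genes, beside 1.86% of all genes tested. All 4 were highest in vehicle replicate 2. Of 4 adipocyte markers 1 was detected, Cidec, which fatty liver also expresses, while Adipoq, Plin1 and Lep were at or near 0. Cidec was at 105, 11.8 and 21.6 CPM (vehicle) against 127, 86.7 and 74.2 CPM (insulin), low in the same 2 libraries as Serpina3n. That course was not limited to this marker. The macrophage marker Marco was at 74.2, 7.37 and 9.11 CPM (vehicle) against 135, 58.7 and 65.8 CPM (insulin). Cd68 was also lowest in these 2 libraries, while Clec4f, Adgre1 and Csf1r were not. Macrophage (176 to 341 CPM), stellate (112 to 215 CPM), endothelial (74.6 to 140 CPM), pancreas (14.9 to 18.5 CPM) and muscle (0 to 0.0954 CPM) sums are given over their whole lists, and their part in the results was not tested. Of 6 pancreas markers 1 reached a mean of 1 CPM, Cela1, at 14.5 to 18.3 CPM. Pnlip, Cpa1, Prss2 and Amy2a5 had no counts.

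Some genes outside the family followed the same course over the 6 libraries. Likeness was measured as the root mean square difference of centred log2 CPM over the 7414 genes that averaged 10 CPM or more. Closest to the Serpina1 sum were Slc40a1, Cyp2d10, Slc19a2 and Tpt1, at 0.089 to 0.11, where the median gene was at 0.48. Slc40a1, which encodes the iron exporter ferroportin, was at 88.5, 134 and 158 CPM (vehicle) against 75.9, 64.7 and 87.1 CPM (insulin). Closest to Serpina3n were Col4a1, Manf, Fitm1 and Mup12, at 0.16 to 0.23, with the median gene at 0.95. Manf encodes a secreted factor of the endoplasmic reticulum stress response. It was at 388, 182 and 81.3 CPM (vehicle) against 340, 393 and 336 CPM (insulin). The genes named here were picked for such likeness, so the low values of Manf in vehicle replicates 2 and 3 follow from the choice. Closest to Serpina6 were Cyp2c38, Me1, Ccdc71l and Tbk1, at 0.083 to 0.20 beside a median of 0.54. Cyp2c38 was at 29.1, 27.8 and 27.0 CPM (vehicle) against 31.4, 44.1 and 16.6 CPM (insulin).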

How the data were processed

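Liver RNA of 6 mice (3 IR insulin, 3 IR vehicle) had been sequenced by the authors from NEBNext Ultra libraries on an Illumina HiSeq and aligned with Bowtie2 2.2.3 to mm10 (the study's methods and the submitters' processing notes). The deposited table held raw read counts per gene, neither normalized nor pooled, for 54532 Ensembl genes, of which 54495 were found in GENCODE release M21 (build 38). The counting program, annotation release, strand setting and read length are not given in the sources used here. Bowtie2 does not splice, so reads over exon junctions can be lost, and how reads that fit several paralogs were assigned is unknown.

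Groups and replicate numbers came from the sample labels. Genes were kept by filterByExpr (minimum count 10, minimum total 15), TMM-normalized and tested in edgeR 4.0.16 (R 4.3.3) with glmQLFit and glmQLFTest, no covariate, and Benjamini-Hochberg adjustment over 13377 genes. SEs were derived from the F statistic, and log2 CPM used a prior count of 2. With 3 against 3, exact two-sided permutation p-values start at 0.1, so none are given. The biological coefficient of variation was 0.357. For genes with many counts it limits the precision more than the depth of 18449986 to 21827619 counts. For Serpina3c, with 7 counts in vehicle replicate 3, counting error limits it as well.

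Paralog sums replaced the rows of their members in a second fit. RPKM used the longest transcript. Coding sequences, loops, windows and promoters were read from GENCODE transcripts and RefSeq windows with Biopython 1.88. Alternatives were RLE factors, no filter, DESeq2 1.42.0, voom with quality weights (limma 3.58.1), a GC offset (loess span 0.5; GC known for 13367 genes), a replicate block and leaving out each library.

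The members and lists were chosen with earlier results of these data known. Named were the 10 members, from each of 6 related lists the 2 genes with the smallest p among those with a mean of at least 1 CPM, all other serpins of the same family at that level, and the 4 genes most like the Serpina1 sum, Serpina3n and Serpina6. For 1 list only the leading gene is reported here. Elane, Ctsg, Cidec, Adipoq, Plin1, Lep, the macrophage and pancreas markers and Serpina4-ps1 were named after their values were seen.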

Additional observations from a re-analysis of the deposited data

How the results depend on the processing

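No gene passed an adjusted p of 0.05 in edgeR (383 at an unadjusted p under 0.05), in DESeq2 (507) or with voom (213). The count of all genes past the study's criteria was 383, and it was 742 with no filter on low counts, 213 with voom and 99 to 1349 when 1 library was left out. The count of the 10 Serpina genes past these criteria was 2, and it was 1 with no filter (Serpina1d, beside 3.22% of all genes), 0 with voom (1.59%) and 0 to 4 when 1 library was left out. With the replicate block it was 2 as well, but they were Serpina3c (log2 fold change 1.41, unadjusted p 0.0160) and Serpina3n (1.16, 0.0453), while Serpina1a and Serpina1d had an unadjusted p of 0.0987 and 0.0879. The labels give both groups replicate numbers 1 to 3, but same-numbered samples had correlations of deviations of −0.039, 0.069 and 0.017, so the numbers were not taken as pairs. The block gave 321 genes past the criteria. Under it the Serpina1 and Serpina3 sums had log2 fold changes of −0.61 and −0.21.

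Over 12 alternatives the Serpina1 sum ran from −0.84 to −0.37 (adjusted p 0.507 to 0.9997) and the Serpina3 sum from −0.32 to −0.11. With 1 library left out they ran from −0.84 to −0.52 and from −0.32 to −0.11. By DESeq2 the Serpina1 sum had an unadjusted p of 0.0310. Of 120 values of single genes under alternatives, 6 changed sign and none crossed the threshold on adjusted p. Serpina6 became −0.00057 with a GC offset, −0.047 with the block, −0.33 without insulin replicate 2 (the range over left-out libraries was −0.33 to 0.36) and −0.020 without vehicle replicate 3. Serpina3m became 0.0015 without vehicle replicate 2 and 0.045 without insulin replicate 3. The cause was not tested.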

Other observations

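Serpina4-ps1, an annotated pseudogene of the same family, was picked after its counts were seen. Like Serpina3c, it was highest in replicate 1 and lowest in replicate 3 of each group. Its highest liver was vehicle replicate 1 and that of Serpina3c was insulin replicate 1. The ranges over the 6 livers were 9.92-fold and 33.2-fold, and the likeness between these genes was not measured. The vehicle livers (replicates 1, 2 and 3) gave 98.0, 13.4 and 9.87 CPM and the insulin livers 71.1, 46.8 and 26.2 CPM, with replicate 1 the highest of each group. The groups overlapped, and the log2 fold change was 0.25 ± 0.83 (SE; unadjusted p 0.772, adjusted p 0.939, edgeR).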
